A study of Mus musculus with 4 samples.

Results

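The cytosolic ribosomal protein genes were followed in mouse Hoxb8 cells with and without DNMT3A R882H. They were taken as the protein-coding genes with a symbol of Rpl or Rps and a number, plus Rplp0, Rplp1, Rplp2 and Rpsa. Pseudogenes, ribosomal S6 kinase genes and Rps19bp1 were left out, and at least 20 counts over the 4 libraries were required. This gave 81 genes among the 52636 gene lines of the table, 49 of the large (60S) and 32 of the small (40S) ribosomal subunit. A further 3 genes met the symbol rule and missed the count minimum. These were Rpl3l with 2 counts and Rpl10l and Rpl39l with 0, while the lowest genes inside it were Rps27 with 129 counts and Rpl27 with 137.

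Hoxb8 cells are progenitor-like cells held in culture by the homeobox gene Hoxb8. One group carried an empty vector (EV, n = 2) and the other expressed DNMT3A with the change R882H (R882H, n = 2), a substitution in the catalytic domain of a DNA methyltransferase that recurs in myeloid leukaemia. Both groups are labelled as the same line, and the Hoxb8 gene itself had 25 and 44 counts in EV and 15 and 4 in R882H (−1.92 ± 0.45 on the log2 scale, edgeR adjusted p = 0.000833). The labels do not say whether the groups came from the same animal, and Y-linked transcripts, given with the X-linked genes below, were near 0 in EV and present in R882H. Nor do they give the promoter of the vector, the number of clones, or whether replicates were grown separately, so a p-value here measures the spread between these samples, which may be technical.

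Each ribosome carries 1 copy of nearly every ribosomal protein, so cells make these proteins in matched amounts. Many of their mRNAs begin with a cytosine followed by an unbroken run of pyrimidines, the 5′ terminal oligopyrimidine (TOP) tract, through which mTORC1 and the RNA-binding protein Larp1 control their translation and stability. Progenitors of blood cells are sensitive to the supply of these proteins: loss of a single copy of some of the genes causes Diamond-Blackfan anaemia in people.

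Libraries held 5470330 and 5605092 counts for EV and 5921985 and 5847609 for R882H, and 3 counts, the most that a count of 0 allows, came to 0.507 to 0.548 CPM, the tag count scaled to library size. A transcript gives 1 tag from its 3′ end, so CPM values of different genes are compared without a length correction. Mitochondrially encoded genes took 4.48 to 5.26% of the counts. Mouse Dnmt3a had 264 and 270 counts in EV and 254 and 239 in R882H, and whether the expressed cDNA can be counted on this line is not given. Summed myeloid progenitor markers (10 genes) had 3359 to 3392.5 CPM in EV and 5109 to 5236 in R882H, with 4 genes higher, 2 lower and 4 not called. The largest change in counts among them was that of Mpo, with 166 and 198 in EV and 7250 and 7237 in R882H. The 6 B lineage markers summed to 226 to 237 CPM in EV and 720.1 to 804 in R882H. All 5 tested ones were higher, and the largest change in counts was that of Vpreb1, with 112 and 85 in EV and 2383 and 2154 in R882H. The 5 markers of mast cells and basophils summed to 42.0 to 44.6 CPM in EV and 377 to 384 in R882H. All 3 tested ones were higher. Cpa3 had the largest change in counts, with 116 and 134 in EV and 1720 and 1779 in R882H. The 5 of megakaryocytes summed to 883 to 1056 CPM in EV and 21.2 to 27.2 in R882H. The megakaryocyte sum was mostly Pf4, with 5635 and 4781 counts in EV and 90 and 60 in R882H; of the 4 tested genes of that list 1 was higher, 2 lower and 1 not called. All 6 erythroid markers together stayed between 1.54 and 2.74 CPM and all 5 T cell markers between 1.35 and 8.39; Epor, Hba-a1, Cd3e and Cd3g were at 0 in every library. The part of these marker differences in the results below was not tested, and in bulk RNA fewer cells of a type and less RNA per cell cannot be told apart.

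Windows at listed start sites show which of the risen and not called genes have the letters of a TOP tract there. A listed start can differ from the one used in these cells. A window without a run thus does not show that the mRNA lacks one. A 30-base window around the transcription start was read for the 61 of 81 genes with an entry in the RefSeq promoter table (build GRCm38.p6), with 10 bases before the listed start and 20 from it onward. Capitals mark the pyrimidine run that begins at the start base, and windows without capitals have no run of at least 5 beginning with C there. Of the risen genes, 4 with a run are shown first, then 3 genes with a run that were not called. Last come 3 risen genes without one at the listed start.
Rpl15, chr14:18270967-18270996, minus strand: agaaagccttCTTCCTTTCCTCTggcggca
Rps18, chr17:33955646-33955675, minus strand: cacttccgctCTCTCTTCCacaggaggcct
Rps15a, chr7:118116128-118116157, minus strand: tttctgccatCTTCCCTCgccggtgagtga
Rpl35a, chr16:33056472-33056501, plus strand: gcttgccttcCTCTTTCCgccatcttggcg
Rps6, chr4:86857348-86857377, minus strand: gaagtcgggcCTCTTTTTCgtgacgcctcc
Rpl28, chr7:4792955-4792984, plus strand: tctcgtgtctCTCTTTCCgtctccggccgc
Rplp2, chr7:141447641-141447670, plus strand: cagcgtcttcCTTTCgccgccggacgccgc
Rpl37, chr15:5116603-5116632, plus strand: cctgggcggaagcttatccacaggaagtgg
Rpl36a, chrX:134585644-134585673, plus strand: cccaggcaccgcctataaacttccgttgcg
Rpl11, chr4:136053374-136053403, minus strand: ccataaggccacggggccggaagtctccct

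Such a run was found at a listed start of 13 of the 61 genes (21.3%), against 813 of all 27025 genes in the table (3.01%). A listed start can lie some bases away from the start used in these cells, so the count is of letters at listed positions only. In the 300 bases from 250 before to 50 after the start, on both strands, the letters CCGGAAG, bound by ETS factors such as GABP, were in 25 of 61 genes (41%) and 9.93% of all. The letters AAGATGGC, part of the YY1 site, were in 6 (9.84%) and 3.19%, GGGCGG, the GC box of SP1, in 39 (63.9%) and 38.2%, and TATAAA in 7 (11.5%) and 15.7%. A match is a description of letters, not a bound site. CCGGAAG and AAGATGGC can share the letters AAG, and a gene with both is counted for each.

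Ribosomal protein transcripts took a larger share of the counts in both R882H libraries than in either EV library. The share was 9.70% in EV replicate 1, 8.21% in EV replicate 2, 12.3% in R882H replicate 1 and 12.6% in R882H replicate 2, with means of 8.96 ± 1.06% (SD, n = 2) and 12.4 ± 0.258% (SD, n = 2) and a ratio of 1.39. The exact two-sided permutation test over libraries gave p = 0.33, the smallest that 2 against 2 can give. Large subunit genes went from 4.52 ± 0.501% to 6.17 ± 0.0927% (SD, n = 2) and small subunit genes from 4.43 ± 0.555% to 6.28 ± 0.165%, so both subunits held nearly equal shares in each group.

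**Figure D1:**
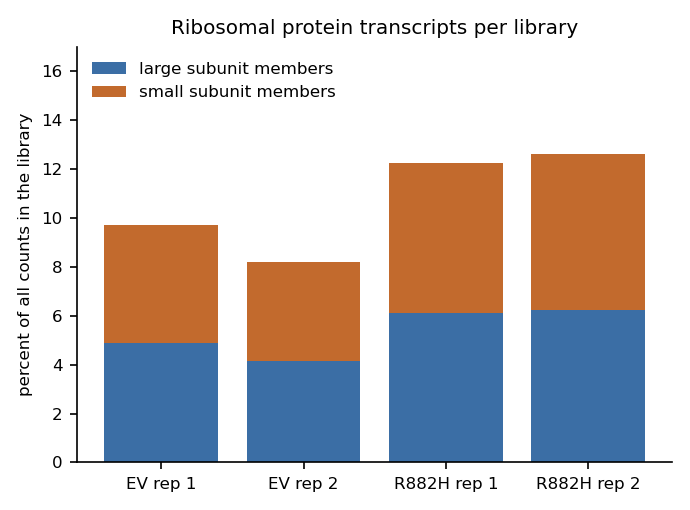
Percent of all counts taken by the 81 ribosomal protein genes in each of the 4 libraries, with large subunit genes at the bottom of each bar and small subunit genes on top. The R882H bars reach 12.3% and 12.6% and the EV bars 9.70% and 8.21%.

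Gene by gene, 47 of the 81 rose, 1 fell (Rpl29) and 33 were not called in the edgeR quasi-likelihood test (adjusted p below 0.05 over 11444 tested genes). Of all tested genes, 19.3% rose and 19.4% fell, so the share of risen ribosomal protein genes, 58.0%, stood above the background and that of fallen ones below it. All 81 passed the low-count filter. Both R882H libraries were above both EV libraries in 62 genes (35.2% of all tested genes), below them in 4 (33.9% of all), and overlapped with them in 15. The 4 were Rpl29, Rplp0, Rplp2 and Rpl27. The median log2 fold change (R882H over EV) was 0.42, with quartiles of 0.20 and 0.60 and a range from −0.60 to 1.10, beside a median of 0.01 and quartiles of −0.35 and 0.38 over all tested genes. Without R882H replicate 2 the count of risen genes dropped to 22, beside 14.0% of all genes, while the median log2 fold change of all 81 genes stayed at 0.40.

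**Figure D2:**
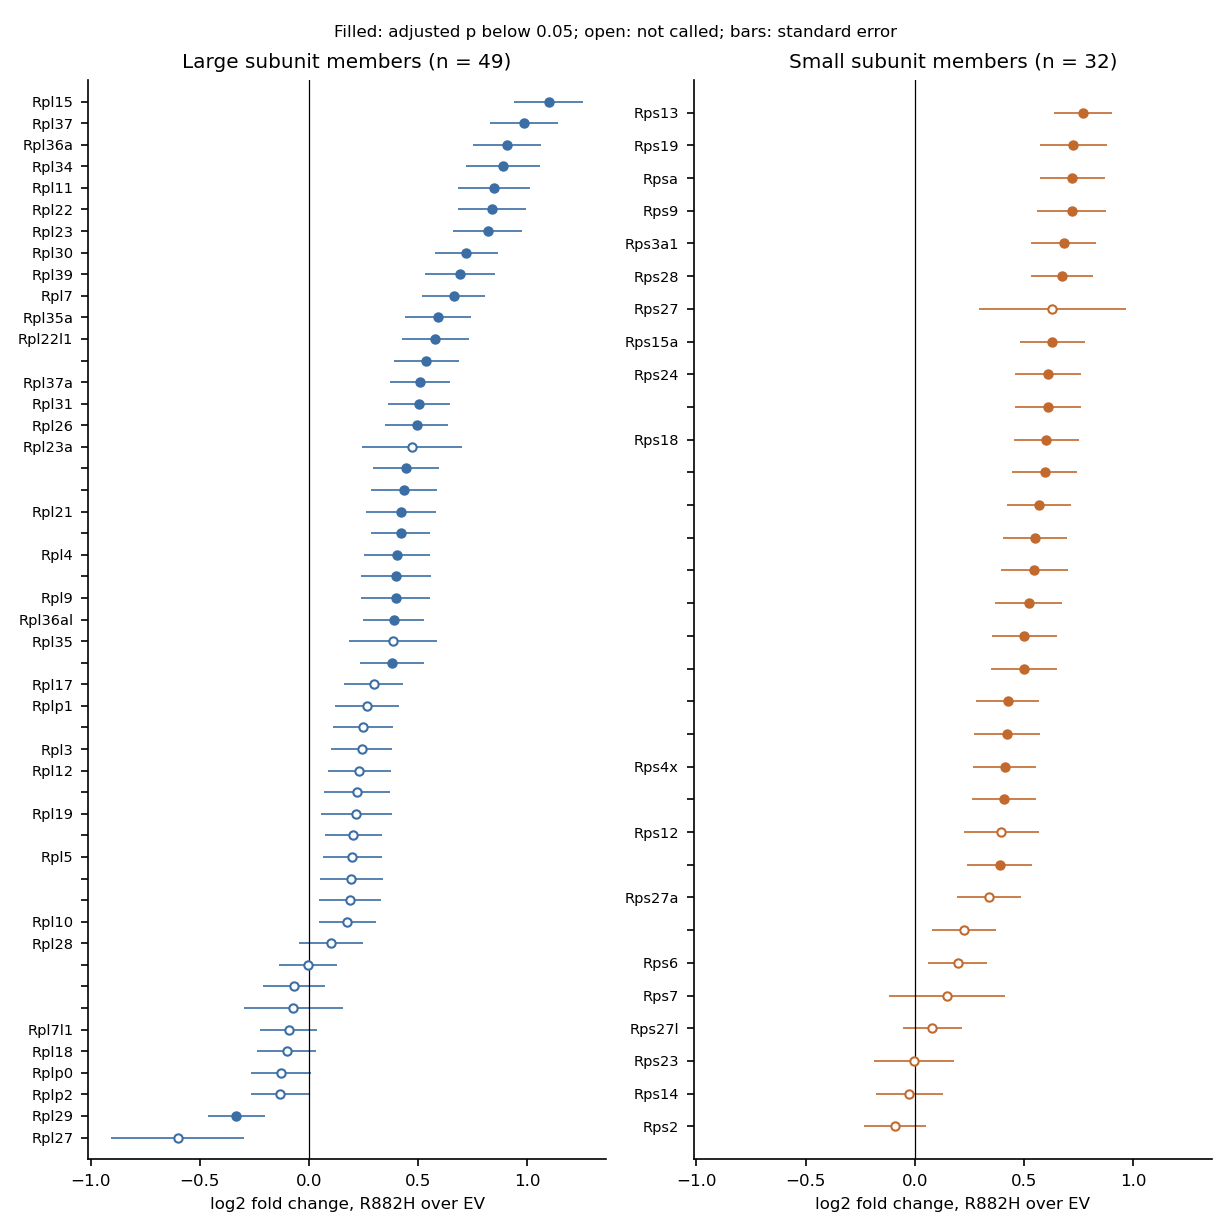
Log2 fold change of each ribosomal protein gene, R882H over EV, sorted within the large (left, 49 genes) and small (right, 32 genes) subunit, with names beside the genes discussed in the text; bars are standard errors, and filled points have an adjusted p below 0.05. Most points lie to the right of 0, from Rpl15 at 1.10 down to Rpl27 at −0.60, which was not called, and the only filled point left of 0 is Rpl29.

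In the large subunit 25 of 49 genes rose, 1 fell and 23 were not called, with a median log2 fold change of 0.39. In the small subunit 22 of 32 rose, none fell (in edgeR also at an unadjusted p below 0.05, and none in DESeq2) and 10 were not called, with a median of 0.51; whether the subunits differ was not tested. Without R882H replicate 2, 13 large and 9 small subunit genes rose. Standard errors of the log2 fold change were 0.13 to 0.17 in edgeR for every gene with a mean above 100 CPM. That fit shares its estimate of spread across genes, so the narrow range does not show like precision. In DESeq2 the standard error was 0.351 for Rpl11 and 0.340 for Rpl34, beside 0.126 for Rpl7.

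Rpl15 showed the largest rise of the class. It is a core 60S protein that folds deep into the large rRNA, and a gene of Diamond-Blackfan anaemia (ENSMUSG00000012405, chromosome 14, 18267823 to 18271391). Its CPM was 1144 and 793 in EV (replicates 1 and 2, the order kept below) and 1999.6 and 2144 in R882H. The groups were far apart, and the log2 fold change was 1.10 ± 0.16 (SE, edgeR adjusted p = 8.66e-07). An exon of Rpl15 overlaps one of Nkiras1, so reads of the latter may be counted in it. Rpl37, a zinc-binding 60S protein (ENSMUSG00000041841, chromosome 15, 5116645 to 5119140), had 1316 and 942 CPM in EV and 2269 and 2195 in R882H. Its log2 fold change was 0.98 ± 0.16 (edgeR adjusted p = 4.25e-06). Rpl15 carries the longest of the runs printed above and Rpl37 has none at its listed start, which may differ from the start used in these cells. Whether such a run goes with the size of a rise was not tested.

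Rpl36a, which lies at the exit site for spent tRNA, had 1282 and 909 CPM in EV and 2008 and 2099.6 in R882H (0.91 ± 0.16 on the log2 scale, edgeR adjusted p = 1.57e-05). Rpl34 had 1826 and 1137 CPM in EV and 2770.5 and 2715.5 in R882H (0.89 ± 0.17, adjusted p = 9.83e-05). Rpl23, which sits on the face that joins the 40S, had 1597 and 1074 CPM in EV and 2379.9 and 2329.9 in R882H (0.82 ± 0.16, adjusted p = 9.69e-05). In each of the 3, EV replicate 1 was above EV replicate 2 while the R882H libraries were close together. Rpl30, a small 60S protein at the subunit interface, had 979 and 813 CPM in EV and 1461 and 1491 in R882H (0.72 ± 0.14, adjusted p = 0.000136). Of the 31 other 60S genes outside the stalk, the 5S particle, the tunnel rim and the paralogs, these included, 17 rose and 1 fell, with a median log2 fold change of 0.40.

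**Figure D3:**
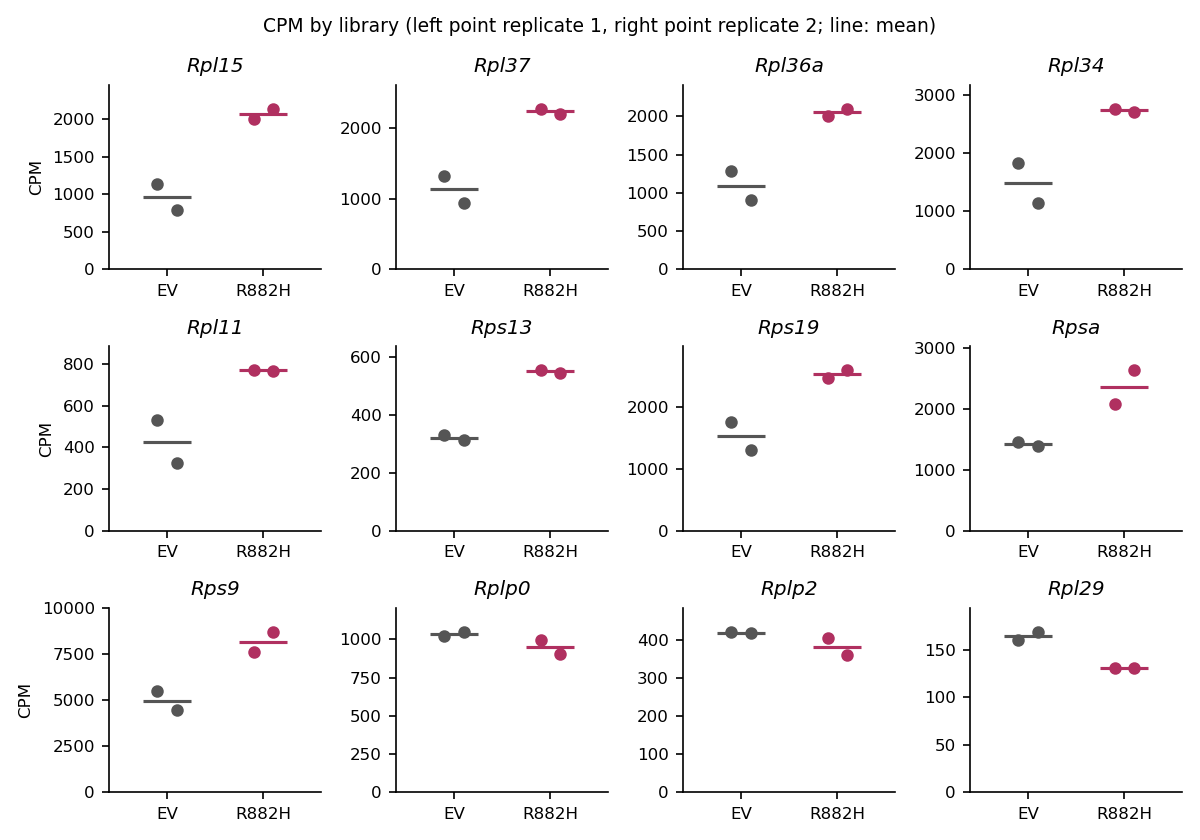
CPM of 12 ribosomal protein genes in each library, EV in grey and R882H in red, with replicate 1 on the left of each pair and the group mean as a line; every axis starts at 0. The R882H points lie above the EV points for Rpl15 to Rps9 in reading order and below them for Rplp0, Rplp2 and Rpl29.

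No gene of the P stalk or its base was called. The stalk is the flexible arm of the 60S that recruits elongation factors; Rplp0 anchors it, Rplp1 and Rplp2 form its pairs of tips, and Rpl12 lies at its base. The median log2 fold change of the 4 was 0.05. Rplp0 had 1024 and 1051 CPM in EV and 994 and 906 in R882H (−0.13 ± 0.14 on the log2 scale, edgeR adjusted p = 0.497). Rplp2 had 422 and 417 CPM in EV and 404 and 361 in R882H (−0.13 ± 0.13, adjusted p = 0.455). For both, the R882H libraries lay below the EV libraries by less than the error of the fit. Rplp1, its partner in the tips, had 3665 and 3529 CPM in EV and 4261 and 4387 in R882H (0.27 ± 0.15, adjusted p = 0.157). Rplp1 was thus far more abundant by tags than Rplp2. Whether the stalk genes differ from the others in their change was not tested, and a set of 4 was picked by role with the values known.

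The partners of the 5S rRNA in the 5S particle, Rpl5 and Rpl11, bind and inhibit the p53 ligase Mdm2 when they are not built into ribosomes. Rpl11 rose, with 531 and 324 CPM in EV and 769.9 and 767 in R882H (0.85 ± 0.16, edgeR adjusted p = 0.000145), though a Wald test in DESeq2 gave an adjusted p of 0.0628. Rpl5 had 83.6 and 78.9 CPM in EV and 102.5 and 83.9 in R882H (0.20 ± 0.14 on the log2 scale, edgeR adjusted p = 0.254). All R882H values of both genes were above the EV values, and Rpl5 stood at a far lower level than Rpl11.

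Of 9 genes at the peptide exit tunnel and its rim, where the nascent chain leaves the ribosome, 5 rose and 4 were not called, with a median log2 fold change of 0.47. Rpl22 had 1326 and 921 CPM in EV and 2024 and 1995 in R882H (0.84 ± 0.16, edgeR adjusted p = 5.28e-05). Rpl39, a short protein of the tunnel wall, had 663 and 424 CPM in EV and 897 and 858 in R882H (0.69 ± 0.16, adjusted p = 0.000892, and 0.106 in DESeq2). Rpl4, which lines the tunnel wall, had 4058 and 3615 CPM in EV and 4973 and 5182 in R882H (0.40 ± 0.15, adjusted p = 0.0319). Rpl4 was among the 3 most abundant genes of the class, and its call was lost in several of the alternatives given at the end. Rpl26 and Rpl31 rose by 0.49 ± 0.14 and 0.50 ± 0.14 on the log2 scale, and Rpl17, Rpl19, Rpl23a and Rpl35 were not called.

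In the 40S head, the part of the small subunit that swivels as tRNAs move, 12 of 14 genes rose, beside 47 of all 81. Both R882H libraries exceeded both EV libraries in all 14, beside 62 of all 81. The median log2 fold change was 0.55, beside 0.42 for all 81, and the difference was not tested. Rps19, the gene most often mutated in Diamond-Blackfan anaemia (ENSMUSG00000040952, chromosome 7, 24884371 to 24889806), had 1757 and 1302 CPM in EV and 2465 and 2594 in R882H. Its log2 fold change was 0.73 ± 0.15 (edgeR adjusted p = 0.00027). Rps28 had 1185 and 1023.5 CPM in EV and 1771 and 1755 in R882H (0.68 ± 0.14, adjusted p = 0.000296). Among the head genes Rps19 had the largest rise. The head genes without a call were Rps12 (0.40 ± 0.17, adjusted p = 0.0676) and Rps27a, made as a fusion with ubiquitin (0.34 ± 0.15, adjusted p = 0.0629).

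In the 40S body and platform 10 of 17 genes rose and 7 were not called, with a median log2 fold change of 0.50. Rps13 had the largest rise of the small subunit and little spread in either group, with 331 and 314 CPM in EV and 555 and 547 in R882H (0.77 ± 0.13, edgeR adjusted p = 1.74e-05). Rpsa, also known as the laminin receptor and late to join the 40S, had 1464 and 1401 CPM in EV and 2088 and 2638 in R882H (0.72 ± 0.15, adjusted p = 0.00021). Here the R882H libraries were the ones that differed. Rps9 was the most abundant gene of the class, with 5471 and 4441 CPM in EV and 7611 and 8705 in R882H (0.72 ± 0.16, adjusted p = 0.000463). Rps3a1 rose by 0.68 ± 0.15 (adjusted p = 0.00039). Rps14, a gene of the region lost in human 5q- syndrome, had 2667 and 1986 CPM in EV and 2303 and 2271 in R882H. The R882H values fell between the EV values, and the log2 fold change of −0.02 ± 0.15 (edgeR adjusted p = 0.914) became 0.20 without EV replicate 1.

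Rpl29, a small basic 60S protein, was the only gene that fell. It lies at chromosome 9, 106429454 to 106431568 (ENSMUSG00000048758), and had 161 and 169 CPM in EV and 130.9 and 130.5 in R882H. The groups did not overlap, and the log2 fold change was −0.33 ± 0.13 (edgeR adjusted p = 0.0394). The call was lost with the Wald test of DESeq2 (adjusted p = 0.0741), without the low-count filter (0.0546) and without EV replicate 2 (0.0687), R882H replicate 1 (0.244) or R882H replicate 2 (0.246), with the log2 fold change between −0.34 and −0.30 in each. Rpl27 had the lowest log2 fold change, −0.60 ± 0.30 (adjusted p = 0.116), at 7.50 and 7.04 CPM in EV and 4.84 and 4.73 in R882H.

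Paralogs encode variants that can take the place of a ribosomal protein, and 2 of 4 rose. Rpl22l1, the paralog of Rpl22, had 362 and 234 CPM in EV and 450.0 and 439 in R882H (0.58 ± 0.15, edgeR adjusted p = 0.00342; 0.0721 without EV replicate 2). Rpl22 protein is known to restrain Rpl22l1, and here both transcripts rose, with Rpl22 more abundant in every library. Rpl36al, the autosomal copy of Rpl36a, had 632 and 540.4 CPM in EV and 749 and 786 in R882H (0.39 ± 0.14, adjusted p = 0.0253). Rpl7l1, a factor close in sequence to Rpl7, had 132 and 115 CPM in EV and 115 and 117 in R882H (−0.09 ± 0.13, adjusted p = 0.612), while Rpl7 rose by 0.66 ± 0.14 (adjusted p = 0.000353). Rps27l, a p53-responsive relative of Rps27, had 410.5 and 340.2 CPM in EV and 389 and 405 in R882H (0.08 ± 0.14, adjusted p = 0.675). Rpl36al lost its call without EV replicate 2 and without either R882H replicate (adjusted p from 0.0893 to 0.193).

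Chromosome X carries 4 of the genes, and 3 of these rose beside 44 of 77 on autosomes, where 1 fell. The medians were 0.55 and 0.42 on the log2 scale. Rpl36a and Rpl39 are described above. Rps4x had 2009 and 1886.5 CPM in EV and 2546 and 2638 in R882H (0.41 ± 0.15, edgeR adjusted p = 0.0227), a call lost with the replicate number as a block (0.0547) and without either R882H replicate (0.125 and 0.178). Rpl10 had 193 and 176 CPM in EV and 206 and 210.5 in R882H (0.18 ± 0.13, adjusted p = 0.298). Transcripts of the Y chromosome differed between the same libraries: Ddx3y had 0 and 2 counts in EV and 65 and 41 in R882H, and Eif2s3y 1 and 0 in EV and 26 and 29 in R882H. Xist had 1463 and 1438 counts in EV and 1880 and 1509 in R882H (0.15 ± 0.13 on the log2 scale, edgeR adjusted p = 0.391). The part of this difference in the results was not tested.

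Among 19 genes in which variants cause Diamond-Blackfan anaemia, 13 rose and none fell, beside 47 risen and 1 fallen among all 81. The median log2 fold change was 0.50, beside 0.42 for all 81, and the difference was not tested. Beside Rps19, Rpl15, Rpl11 and Rps28, the risen ones included Rps24 (0.61 ± 0.15) and Rpl35a (0.59 ± 0.15). The 6 that were not called were Rps7, Rps27, Rpl5, Rpl18, Rpl27 and Rpl35, of which all but Rpl18 had a mean below 100 CPM.

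The EV libraries did not hold these transcripts at the same level. In 73 of 81 genes EV replicate 1 was above EV replicate 2, with a median log2 ratio of 0.25, beside −0.02 over all tested genes. Between the R882H replicates 30 genes were higher in replicate 1, and the median log2 ratio was −0.05. Without EV replicate 2 the median log2 fold change of all 81 was 0.30, beside 0.024 over all tested genes. Without EV replicate 1 the median of all 81 was 0.55, beside 0.016 over all tested genes. The change was thus nearer to 0 against the EV library with more of these transcripts, and positive against both. Across the 81 genes the log2 fold change and the log2 ratio of the EV replicates had a Pearson r of 0.501 and a Spearman rho of 0.525, against 0.094 and 0.171 over all tested genes. The genes share the libraries, and both measures use the EV values, so these are descriptions. Rpl34 and Rpl11 had wide gaps between the EV libraries, whereas Rps13 and Rpsa had narrow ones and rose as well.

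**Figure D4:**
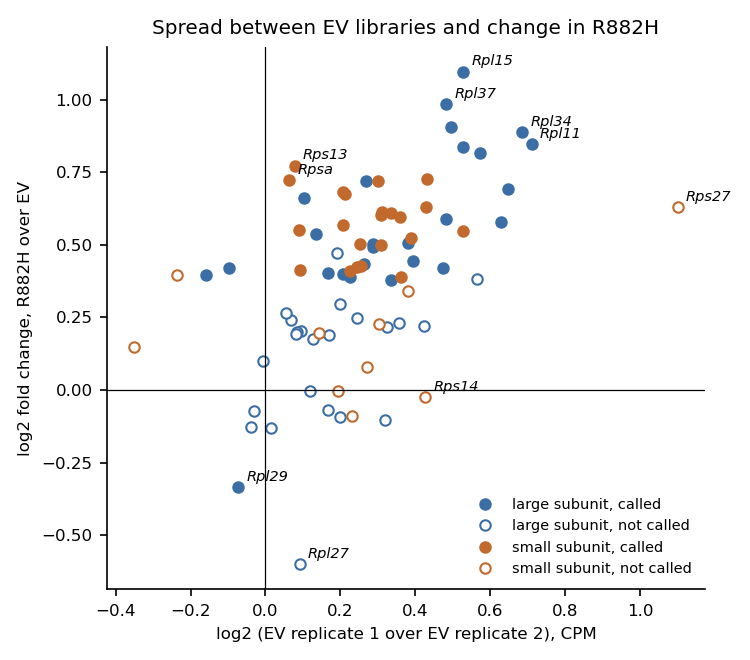
Log2 fold change of each gene (R882H over EV, vertical) against the log2 ratio of its CPM in EV replicate 1 over replicate 2 (horizontal); filled points were called. Most points lie right of 0, since 73 of 81 genes were higher in EV replicate 1, and Rps13 and Rpsa rose with a ratio near 0.

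In 18 genes the rise was called under every alternative that tests all 81, among them Rpl7, Rpl15, Rpl22, Rpl23, Rpl30, Rpl34, Rpl35a, Rpl36a, Rpl37, Rpl37a, Rpsa, Rps3a1, Rps9, Rps13, Rps15a, Rps19 and Rps28. The 18 come from both subunits and from most of the roles above, with no stalk gene and no paralog among them. In the 4 fits that leave out 1 library, 20 genes were called each time.

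Levels spanned a wide range for proteins that are needed in matched amounts. Mean CPM ran from 5.63 for Rps27 to 6557 for Rps9, and 13 genes lay below 100 CPM. Ribosomal protein genes have many processed copies in the mouse genome, so the last 300 bases of each transcript were split into all 75-base windows, the shorter read length in the labels, and each window was looked for in the other annotated genes. At least 75% of the windows were found elsewhere for 23 genes, whose median level was 239.9 CPM, against 1533 for the other 58. Of the 13 genes below 100 CPM, 9 were among the 23; Rpl5 and Rpl12 had no shared window and Rps23 few (2.65%). Across the 81 genes the log2 mean CPM and the share of such windows had a Pearson r of −0.411 and a Spearman rho of −0.413. How reads with several matching places were counted is not given, and its part in the levels was not tested.

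**Figure D5:**
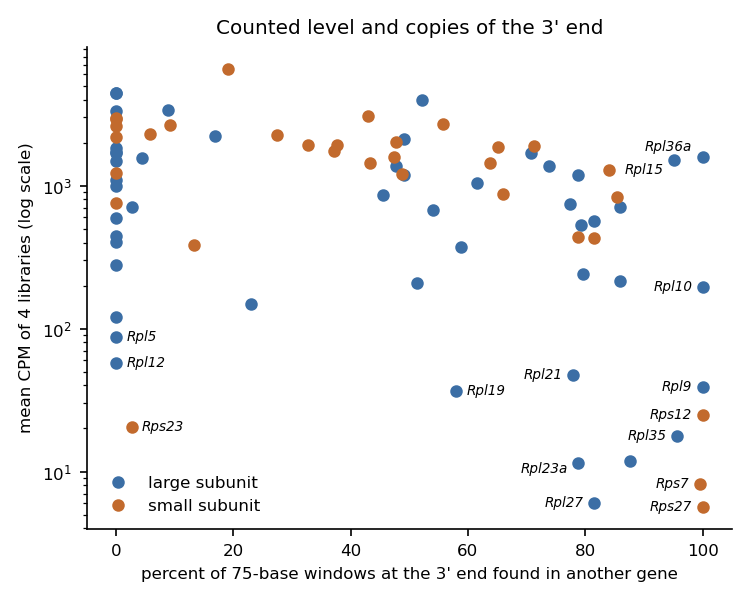
Mean CPM of each ribosomal protein gene over the 4 libraries (log scale) against the percent of 75-base windows in its last 300 transcript bases that also occur in another annotated gene. Of the 13 genes under 100 CPM, 9 have at least 75% of windows shared, while Rpl36a and Rpl15 combine shared ends with over 1000 CPM.

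Of the 23 genes with shared ends 9 rose, with a median log2 fold change of 0.40, and of the other 58 genes 38 rose and 1 fell, with a median of 0.43. Across the 81 genes the log2 fold change and the share of such windows had a Pearson r of 0.029 and a Spearman rho of 0.001. Of the 13 genes below 100 CPM, 2 rose (Rpl9 and Rpl21), beside 19.3% of all tested genes. Neither was called with the Wald test of DESeq2 (adjusted p = 0.173 for Rpl9 and 0.161 for Rpl21). Rps12 had 107 and 131 counts in EV and 173 and 156 in R882H. The line of Rps12-ps3, a copy at chromosome 19, 59322290 to 59322783, had 3792 and 3330 in EV and 5245 and 5651 in R882H (0.54 ± 0.14, edgeR adjusted p = 0.00253). With its -ps lines added, Rps12 rose (0.54 ± 0.14, adjusted p = 0.00264). Rpl23a had 56 and 51 counts in EV and 85 and 71 in R882H, against 1883 and 1367 in EV and 2892 and 2399 in R882H on the line of Rpl23a-ps3, a copy at chromosome 14. With its -ps lines added it rose (0.62 ± 0.15, adjusted p = 0.00094). For both genes the copy held most of the counts and differed between the groups in the same direction. With all -ps lines added, 49 of 81 genes rose and 1 fell. Of the 81 genes, 23 share exon bases with some other gene of at least 10 counts, and among the remaining 58, 34 rose and 1 fell.

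Genes with and without the start letters had like medians. A run of at least 5 pyrimidines beginning with C was at a listed start of 13 genes. Of these 13, 7 rose, with a median log2 fold change of 0.43. Of the other 48 genes 30 rose, also with a median of 0.43. Some of the 48, such as Rpl27a, had a run that began with T. Rps18, Rps15a and Rpl35a rose by 0.60 ± 0.15, 0.63 ± 0.15 and 0.59 ± 0.15 with runs of 9, 8 and 8 bases, while Rps6 (0.20 ± 0.13), Rpl28 (0.10 ± 0.15) and Rplp2 were not called with runs of 9, 8 and 5. With the CCGGAAG letters 17 of 25 genes rose (median 0.49) and without them 20 of 36 (median 0.41). These splits were not tested.

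Ribosomal proteins with other symbols include Fau and Rack1, and both rose. Fau, the source of the 40S protein eS30, rose by 0.44 ± 0.14 (edgeR adjusted p = 0.0147), from 69.9 and 50.7 CPM in EV to 80.1 and 83.4 in R882H. Rack1, the signalling scaffold of the 40S head, had 2299.5 and 2333 CPM in EV and 3009 and 3134 in R882H (0.41 ± 0.15, adjusted p = 0.0253). Among 20 other mRNAs with a TOP tract, 7 rose, 3 fell and 10 were not called, with a median log2 fold change of 0.19, beside 19.3% higher and 19.4% lower over all tested genes. Falls were thus no more frequent than in the background. Tpt1 rose by 0.80 ± 0.15 (adjusted p = 7.66e-05), the elongation factor gene Eef1a1 by 0.69 ± 0.16 (0.000702) and the RNA-binding protein gene Hnrnpa1 by 0.61 ± 0.14 (0.000662). The 3 that fell were Eef1d (−0.82 ± 0.13, adjusted p = 6.18e-06), Ybx1 (−0.40 ± 0.14, 0.0243) and Eef2 (−0.37 ± 0.15, 0.0482).

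Genes that make and assemble ribosomes were set beside the background of 19.3% of all tested genes higher and 19.4% lower. Of 19 genes for ribosomal protein chaperones and late assembly, 2 rose and 7 fell, with a median log2 fold change of −0.12. Grwd1, the chaperone of Rpl3, fell from 60.6 and 65.2 CPM in EV to 27.7 and 27.5 in R882H (−1.19 ± 0.15, edgeR adjusted p = 9.56e-08). Heatr3, which imports Rpl5, fell by 0.74 (SE 0.15, adjusted p = 0.000218), Eif6, which keeps the subunits apart, by 0.70 (SE 0.13, 6.41e-05) and Mrto4, which holds the place of Rplp0 in the nascent 60S, by 0.68 (SE 0.13, 0.000108). Nob1, which cuts the precursor of 18S rRNA, rose by 0.57 ± 0.15 (adjusted p = 0.00318) and Pdcd2, the chaperone of Rps2, by 0.42 ± 0.16 (0.0392). Rpl3 itself and Rps2 were not called, at 0.24 ± 0.14 and −0.09 ± 0.14.

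Of 15 genes of RNA polymerase I and its factors, which make the rRNA precursor, none rose (nearest was Tbp, 0.31 ± 0.14, edgeR adjusted p = 0.0767) and 3 fell, beside 19.4% of all tested genes, so falls were near the background. The median was 0.02. The fallen ones were Polr1a (−0.86 ± 0.17, edgeR adjusted p = 8.16e-05), Cd3eap (−0.68 ± 0.14, 0.000251) and Rrn3 (−0.47 ± 0.13, 0.00567). Of 16 genes of mTORC1 and its control of TOP mRNAs, 1 rose and 6 fell, beside 19.3% and 19.4% of all tested genes, with a median of −0.24. Larp1, which binds the TOP tract, had 623 and 578 CPM in EV and 370.4 and 394 in R882H (−0.65 ± 0.13, adjusted p = 0.000204). Eif4ebp1, a repressor of cap-dependent translation, fell by 0.91 (SE 0.13, adjusted p = 1.14e-06) and the S6 kinase gene Rps6kb1 by 0.55 (SE 0.14, 0.00253), whereas Eif4ebp2 rose by 0.50 ± 0.13 (0.00265). Translation itself was not measured.

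Of 10 tested genes of the 5S particle and p53 surveillance, 5 rose and 1 fell, beside 19.3% higher and 19.4% lower over all tested genes. The 4 that were not called were Mdm4, Rrs1, Rpf2 and Trp53, the p53 gene itself (−0.15 ± 0.17, edgeR adjusted p = 0.533). Cdkn1a, the p53 target that encodes p21, had 13.7 and 20.2 CPM in EV and 81.1 and 98.4 in R882H (2.40 ± 0.17, edgeR adjusted p = 9e-14). Cdkn2a, which encodes an inhibitor of Mdm2, had 0 and 2 counts in EV and 69 and 64 in R882H and was called higher. Nop53, which places the 5S particle in the 60S, rose by 0.66 ± 0.13 (adjusted p = 0.000114), and Bop1, of an early 60S assembly complex, fell by 0.92 (SE 0.15, 5.63e-06).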

How the data were processed

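RNA was read with a 3′ tag protocol (QuantSeq), per the labels' protocols. The authors deposited raw counts, 1 line per Ensembl gene and 1 column per library, with no normalization. The submitters' processing notes list mm10, HISAT2 2.0.4, Subread 2.0.0 with featureCounts, cutadapt 1.14, bcl2fastq 2.17.1.14, limma 3.48.3 and edgeR 3.34.0. Not given in the sources used here are annotation, strand setting and the handling of reads with several matches.

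Symbols and positions (1-based, mm10) came from GENCODE M21 for 52489 of 52636 lines; 147 had none and stayed in. The test was edgeR 4.0.16 in R 4.3.3: library sizes from all lines, TMM scaling, filterByExpr with the group, robust glmQLFit, glmQLFTest, Benjamini-Hochberg adjustment over 11444 genes and a threshold of 0.05. It was tested on simulated data. CPM of single genes use TMM-scaled library sizes; summed markers and shares use plain totals. The standard error (SE) is the size of the log2 fold change divided by the root of F. Alternatives were other scalings and filters, DESeq2 1.42.0, the replicate number as a block, leaving out each library, adding -ps lines and dropping genes with overlapping exons.

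Genes and lists were chosen with earlier results of these data known. Named by rule were the 12 largest rises, called falls up to 12, paralogs with their parents, stalk proteins, Rpsa, Rpl5, Rpl11, Rps14, Rps19, Rpl22, X-linked genes, the 3 highest and 3 lowest by CPM, and from each pathway list up to 4 called genes by p and up to 2 called the other way. Structural roles and other named genes were chosen after their values were seen. Riok2, on the assembly list, was not analysed here. Some genes that meet these rules are not reported here.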

Additional observations from a re-analysis of the deposited data

How the results depend on the processing

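With 2 libraries a group, calls rest on a spread shared across genes. A fit without 1 library assumes that the lone library varies like the other group. The risen count ran from 22 to 54 in these fits (lowest without R882H replicate 2), the fallen count from 0 to 1, large subunit rises from 13 to 29, small subunit rises from 9 to 25, and large subunit falls from 0 to 1. Over all genes, rises ran from 1508 to 2065 and falls from 1446 to 2168. The median log2 fold change ran from 0.30 to 0.55 and the difference in library share from 2.74 to 4.23 percentage points, against 3.49 with all libraries. DESeq2 called 41 of the genes higher and 0 lower (1 at an unadjusted p under 0.05), and 1401 higher over all genes. Without a low-count filter the fallen count was 0, 1 at an unadjusted p under 0.05, for the large subunit and in all. Leaving out genes that overlap others removed 23 of the 81 genes. Of the remaining 58, 34 rose (58.6%, beside 58.0% of all 81), and 16 of the 34 were large subunit genes. The other scalings, filters and edgeR settings gave 45 to 47 risen genes.

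The labels do not say what the replicate numbers mark. Deviations of same-numbered libraries correlated with r = −0.003 over all genes and −0.039 over the ribosomal protein genes. With 1 pair of libraries a group, this cannot tell whether same-numbered libraries shared a day or culture. With the replicate number as a block, 40 genes rose and 1 fell.

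Several log2 fold changes that were not called changed sign when 1 library was left out. Without EV replicate 1 these included Rpl7l1, Rps14, Rps7, Rpl7a, Rpl18, Rpl6, Rps2 and Rps23. Rps27l changed sign without EV replicate 2, and Rpl28 and Rpl36 did so without R882H replicate 2. Over the fits without 1 library the log2 fold change ran from −0.194 to 0.004 for Rpl7l1 and −0.227 to 0.199 for Rps14. It ran from −0.019 to 0.330 for Rps7 and −0.054 to 0.217 for Rps27l. Rps27 was called without EV replicate 1 (1.27, adjusted p = 0.0238, edgeR). Rpl4, called at 0.0319 in edgeR, lost its call in 4 alternatives (0.0532 to 0.208). Eef2 lost it in 7 (0.0526 to 0.331), Pdcd2 in 4 (0.052 to 0.48), Fau in 3 (0.0852 to 0.242), Rack1 in 3 (0.0635 to 0.192), Ybx1 in 2 (0.161 and 0.258), and Rrn3 (0.192), Eif4ebp2 (0.0921) and Rps6kb1 (0.0906) in 1 each. Without EV replicate 2 the log2 fold change of Fau was 0.22, that of Pdcd2 0.22 and that of Eef2 −0.19, nearer to 0 than with all libraries. That of Rack1 stayed between 0.39 and 0.45 in the fits without 1 library. Some losses came with all 4 libraries (Eef2, Pdcd2, Fau, Rack1, Rpl4), and the cause was not tested.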
